A study of Mus musculus with 7 samples.

Results

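The circadian clock genes described here are 10 genes picked by name: the activators Clock and Npas2, the repressors Per1, Per2, Per3, Cry1 and Cry2, the nuclear receptors Nr1d1 and Nr1d2, and the output gene Dbp. All 10 had a row among the 20354 genes of the count table. RNA was sequenced from nonparenchymal cells (every liver cell type but the hepatocytes) of untreated 2-month-old mice of the C57BL/6 background. The 4 WT libraries came from mice labelled wild type. The 3 knockout libraries came from mice in which Cre driven by Clec4f, active in Kupffer cells (resident macrophages of the liver), deletes floxed Shp2, the phosphatase encoded by Ptpn11. The labels do not say whether the WT mice carried the floxed allele or the Cre. The titles of the knockout libraries all name Shp2, and groups follow them, although their genotype fields name Shp1, Shp2 and Shp3. No label used here gives the hour at which the livers were taken or the lighting schedule.

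The clock is a loop of transcription that runs in nearly every cell with a period of about a day. Clock or its paralog Npas2 pairs with Arntl (Bmal1) on E-box DNA and switches on the Per, Cry and Nr1d genes and Dbp; Per and Cry proteins then block that pair, and the Nr1d receptors repress Arntl, Npas2 and other genes through ROR elements. Dbp carries the rhythm to further genes through D-boxes. In mouse liver the transcripts peak in turn, Nr1d1 and Dbp before Per2, and Per2 before Cry1.

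The DNA just upstream of 3 members holds sites of the kind this loop uses, shown here to place the loop's letters beside the genes measured. The sequences are RefSeq's, on GRCm38.p6, from a table with promoters for 9 of the 10 members (Per2 had no entry). They are given 5′ to 3′ on the gene's strand, with 40 bases on either side of the outermost sites, or up to the base before the annotated start. Capitals mark an E-box (CACGTG) or a D-box (TTATGTAA or TTATGCAA).
Cry1: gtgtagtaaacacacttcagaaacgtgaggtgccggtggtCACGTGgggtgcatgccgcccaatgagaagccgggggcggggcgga
Per1: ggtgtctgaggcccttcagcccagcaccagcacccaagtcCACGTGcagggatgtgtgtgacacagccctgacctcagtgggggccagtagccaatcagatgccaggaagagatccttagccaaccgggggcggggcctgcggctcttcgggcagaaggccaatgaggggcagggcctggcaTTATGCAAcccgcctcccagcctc
Per3: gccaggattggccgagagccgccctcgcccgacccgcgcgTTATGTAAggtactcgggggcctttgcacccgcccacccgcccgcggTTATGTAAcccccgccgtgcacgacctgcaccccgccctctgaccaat
The Cry1 stretch lies at chr10:85185069-85185154 on the minus strand, with its E-box starting 60 bases before the gene's start. The Per1 stretch lies at chr11:69098743-69098948 on the plus strand, with an E-box and a D-box starting 166 and 24 bases before that promoter's start. Per1 had 2 promoters listed, and the window of the other held none of the 4 motifs. The Per3 stretch lies at chr4:151044776-151044910 on the minus strand, with D-boxes starting 205 and 158 bases before the start. Over windows from 250 bases before to 50 after each start, searched on both strands, 7.15% of all 32851 promoters held the E-box and 1.66% a D-box. Counted by gene, over 27025 genes, the shares were 8.09% and 1.98%. The ROR element TAGGTCA (2.61% of promoters) and the cyclic AMP element TGACGTCA (1.79%) were in no member's window, and Clock, Npas2, Cry2, Nr1d1, Nr1d2 and Dbp held none of the 4 motifs. A match is a description of letters and not a site shown to be used. Nor does the lack of an exact match in these windows show that a gene has no such site elsewhere or in other letters.

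Libraries held 11678385 to 32003205 counts, and a gene with no count could lie at up to 3 counts, or 0.0909 to 0.249 CPM (counts scaled to a common library total with TMM factors), counting error alone considered. Knockout replicate 3 stood apart in the share of counts on the ribosomal RNA gene Rn18s, at 7.54% against 0.0527% to 0.122% in the other libraries, and knockout replicate 2 in mitochondrial genes, at 33.2% against 17.3% to 22.4%. Ptpn11 was at 75.3 to 95.5 CPM in WT and 70.0 to 86.2 CPM in knockout libraries, a weak check of the genotype because Kupffer cells are one cell type of several in the fraction. Clec4f was at 1386 to 2656 CPM in WT and 436 to 865 CPM in knockout libraries. Markers summed over each list were present for the fraction's expected cells, and for hepatocytes too: the 6 hepatocyte markers summed to 18290 to 54520 CPM in WT and 17030 to 37350 CPM in knockout libraries. In this bulk fraction, fewer cells of a type and less RNA per cell cannot be told apart.

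Knockout libraries held less Cry1 and Per2 and more Dbp than every WT library, while Clock, Per3 and Nr1d2 had log2 fold changes of -0.06, 0.15 and -0.13. Npas2 was too low to test. In edgeR's quasi-likelihood test 0 of the 9 tested members passed at an adjusted p of 0.05, against 0% of all 14077 genes. At an unadjusted p under 0.05 there were 4 members, Cry1 and Per2 lower and Dbp and Nr1d1 higher, where 4.62% of all genes reached that level (2.27% higher, 2.35% lower). With both WT replicate 2 and knockout replicate 3 left out, 2 were higher (Dbp and Nr1d1) and 3 lower (Cry1, Per2 and Per1) at that level. The share of all genes at that level was not computed for that fit, so these counts have no background to be read against. DESeq2 called 1 member over all genes, Cry1, against 0.469% of all genes, and had 2 higher and 3 lower at an unadjusted p under 0.05, against 5.53% of all genes. Limma voom called 0, and 0 with library quality weights, where the latter called 0.0639% of all genes. The median log2 fold change of the 9 was -0.12, beside 0.01 over all genes tested.

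**Figure D1:**
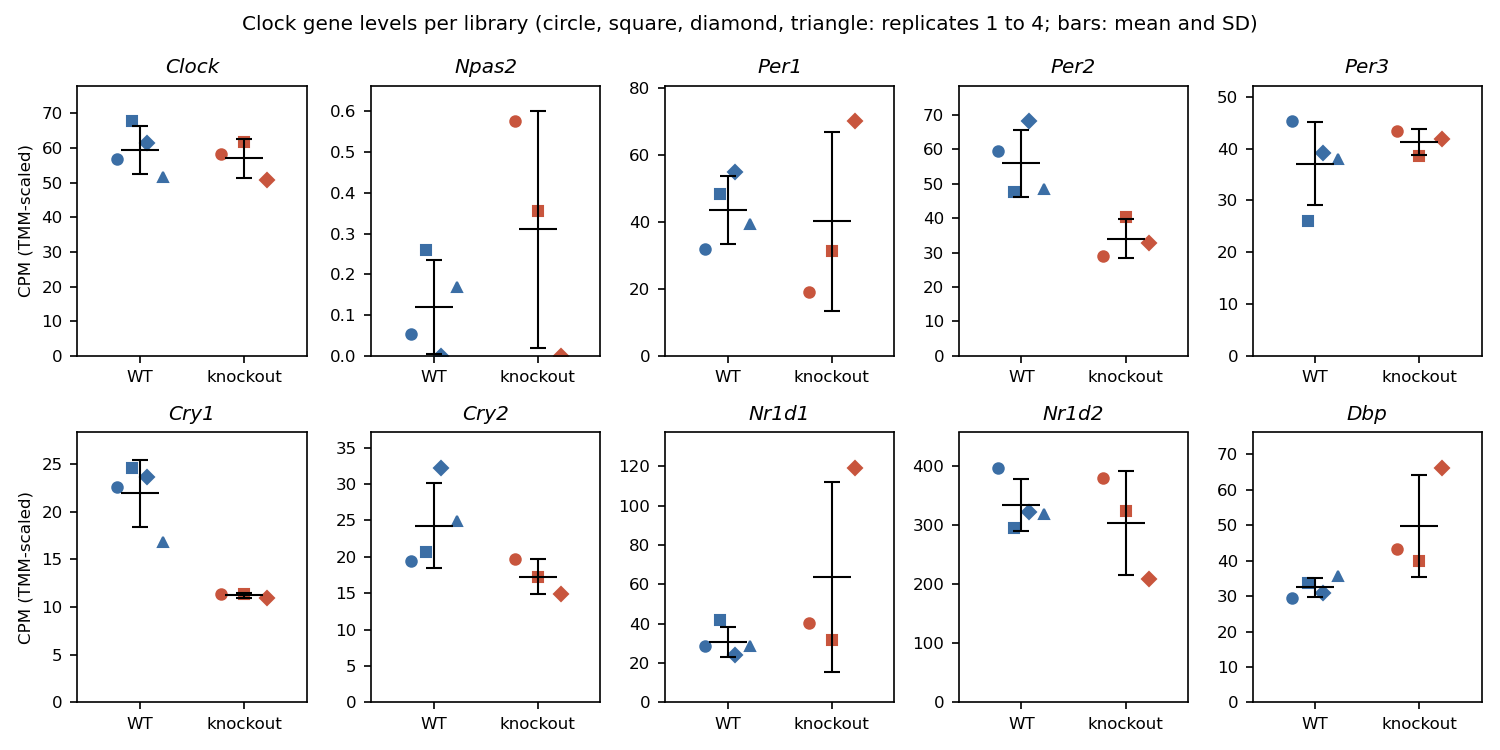
Levels of the 10 clock genes in CPM, 1 panel a gene with axes from 0, in 4 WT (blue) and 3 knockout (red) libraries; horizontal marks and bars are the mean and SD. Cry1 and Per2 of every knockout library lie below the WT libraries and Dbp above them, and Nr1d1 of knockout replicate 3 stands at 119 CPM.

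Among the activators, Clock, which encodes the DNA-binding partner of Arntl, was at 56.9, 67.7, 61.3 and 51.5 CPM in WT replicates 1 to 4 and at 58.4, 61.8 and 50.6 CPM in knockout replicates 1 to 3. The groups overlapped, and the log2 fold change was -0.06 ± 0.17 (SE; edgeR, adjusted p = 0.980). Npas2, which can take the place of Clock, had 1, 5, 0 and 4 counts in the WT libraries and 19, 6 and 0 counts in the knockout libraries. In 3 of the 7 libraries it was under the floor of 3 counts, and Npas2 did not pass the filter on low counts, so no fold is given.

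Of the Per repressors, Per2 was at 59.4, 47.5, 68.1 and 48.5 CPM in WT and at 29.1, 40.2 and 32.8 CPM in knockout libraries. Every knockout library lay below every WT library. The log2 fold change was -0.72 ± 0.20 (SE; edgeR, unadjusted p = 0.00516, adjusted p = 0.733), and without any 1 library it lay between -0.86 and -0.61. Per1, which responds within an hour or so to hormones and other signals, was at 31.9, 48.2, 54.9 and 39.4 CPM in WT and at 19.1, 31.3 and 70.1 CPM in knockout libraries. Knockout replicates 1 and 2 were below the WT libraries and knockout replicate 3 above them. Its edgeR log2 fold change, -0.12 ± 0.38 (SE, adjusted p = 0.981), became -0.79 without knockout replicate 3 (unadjusted p = 0.0230, adjusted p = 0.825) and 0.21 without knockout replicate 1. Per3, the least essential of the family for rhythm in mice, was at 45.3, 26.1, 39.2 and 37.9 CPM in WT and at 43.4, 38.5 and 41.9 CPM in knockout libraries. The knockout values lay inside the WT range, at 0.15 ± 0.21 on the log2 scale relative to WT (SE; edgeR, adjusted p = 0.956), and at 0.016 without WT replicate 2, the lowest library. The Per genes thus had values on both sides of 0, and a difference between them was not tested.

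Of the Cry repressors, Cry1 was at 22.6, 24.6, 23.7 and 16.8 CPM in WT and at 11.4, 11.4 and 10.9 CPM in knockout libraries. The knockout libraries were nearly alike, and all were below the lowest WT library, replicate 4. The log2 fold change was -0.96 ± 0.21 (SE), or 0.513 of the WT level (edgeR, unadjusted p = 0.000831, adjusted p = 0.419). Cry1 fell in DESeq2 (log2 fold change -0.98, adjusted p = 0.00376), and its adjusted p under the alternatives ran from 0.00376 to 0.946. Cry2, the paralog with the flatter rhythm in liver, was at 19.4, 20.7, 32.2 and 24.9 CPM in WT and at 19.8, 17.2 and 14.9 CPM in knockout libraries. Its groups overlapped through WT replicate 1 and knockout replicate 1, and the log2 fold change was -0.49 ± 0.23 (SE; edgeR, unadjusted p = 0.0589, adjusted p = 0.956). Whether Cry1 differed more than Cry2 was not tested.

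The nuclear receptor genes lay at opposite ends of their ranges in knockout replicate 3. Nr1d1, which encodes the haem-binding repressor REV-ERBα, was at 28.6, 41.7, 24.1 and 28.6 CPM in WT and at 40.5, 31.6 and 119 CPM in knockout libraries. Knockout replicates 1 and 2 lay inside the WT range, and knockout replicate 3 far above it. The log2 fold change of 1.05 ± 0.41 (SE; edgeR, unadjusted p = 0.0276, adjusted p = 0.956) became 0.23 without that library (unadjusted p = 0.368). Nr1d1 shares 263 exon bases, 8.55% of its exons, with Thra on the opposite strand, and the library kit does not mark strand. Thra was at 15.5 to 25.5 CPM in WT and at 22.4, 18.9 and 40.9 CPM in knockout libraries, so that it too was highest in knockout replicate 3; the part of shared reads in the value of Nr1d1 was not tested. Nr1d2, the paralog REV-ERBβ, was at 398, 296, 322 and 320 CPM in WT and at 381, 324 and 208 CPM in knockout libraries. Here knockout replicate 3 was the lowest library of all, and the log2 fold change was -0.13 ± 0.27 (SE; edgeR, adjusted p = 0.975), turning to 0.08 without it.

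Dbp, a transcription factor whose gene is a direct target of the Clock and Arntl pair, was at 29.5, 33.6, 31.0 and 35.7 CPM in WT and at 43.3, 39.9 and 66.3 CPM in knockout libraries. Every knockout library lay above every WT library, and knockout replicate 3 was the highest. The log2 fold change was 0.62 ± 0.21 (SE), or 1.53-fold (edgeR, unadjusted p = 0.0138, adjusted p = 0.933), and 0.36 without knockout replicate 3 (unadjusted p = 0.0490). Dbp shares 539 exon bases, 18% of its exons, with Sphk2 on the opposite strand. Sphk2 was at 4.90 to 6.99 CPM in WT and at 4.21, 3.85 and 10.01 CPM in knockout libraries. It was below every WT library in knockout replicates 1 and 2, and like Dbp highest in knockout replicate 3. The part of shared reads in the value of Dbp was not tested. Together, groups that did not overlap were seen in 3 of the 9 tested members, Cry1 and Per2 lower and Dbp higher, beside 6.07% of all genes tested (3.03% higher, 3.05% lower).

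**Figure D2:**
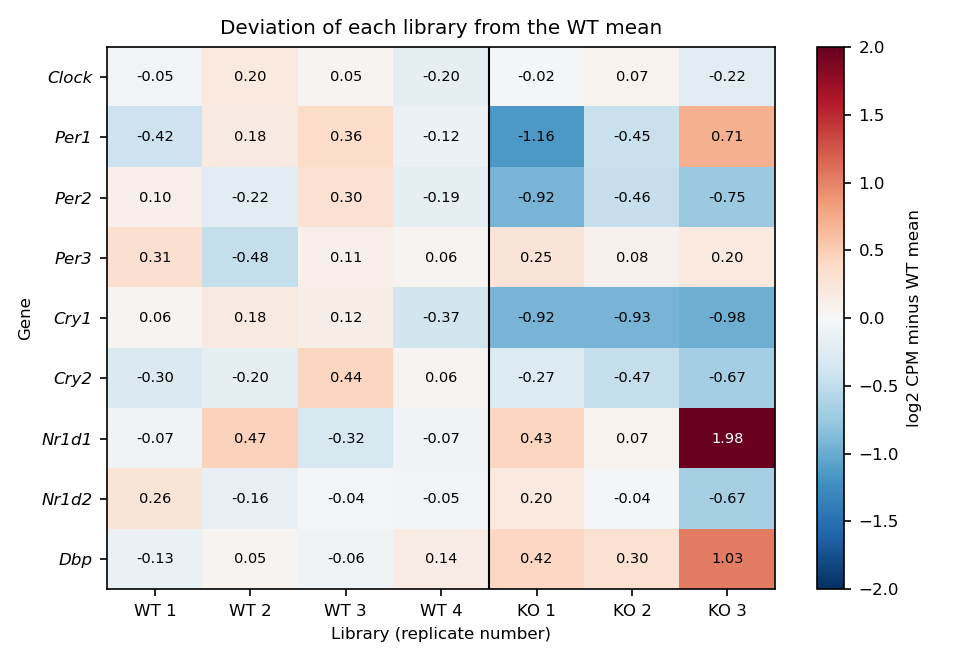
Deviation of each library's log2 CPM from the gene's WT mean for the 9 tested members, with libraries in columns (KO is knockout) and blue for lower, red for higher. Cry1 and Per2 are lower in every knockout column and Dbp higher, while Per1, Nr1d1 and Nr1d2 set knockout replicate 3 apart from the other knockout libraries.

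**Figure D3:**
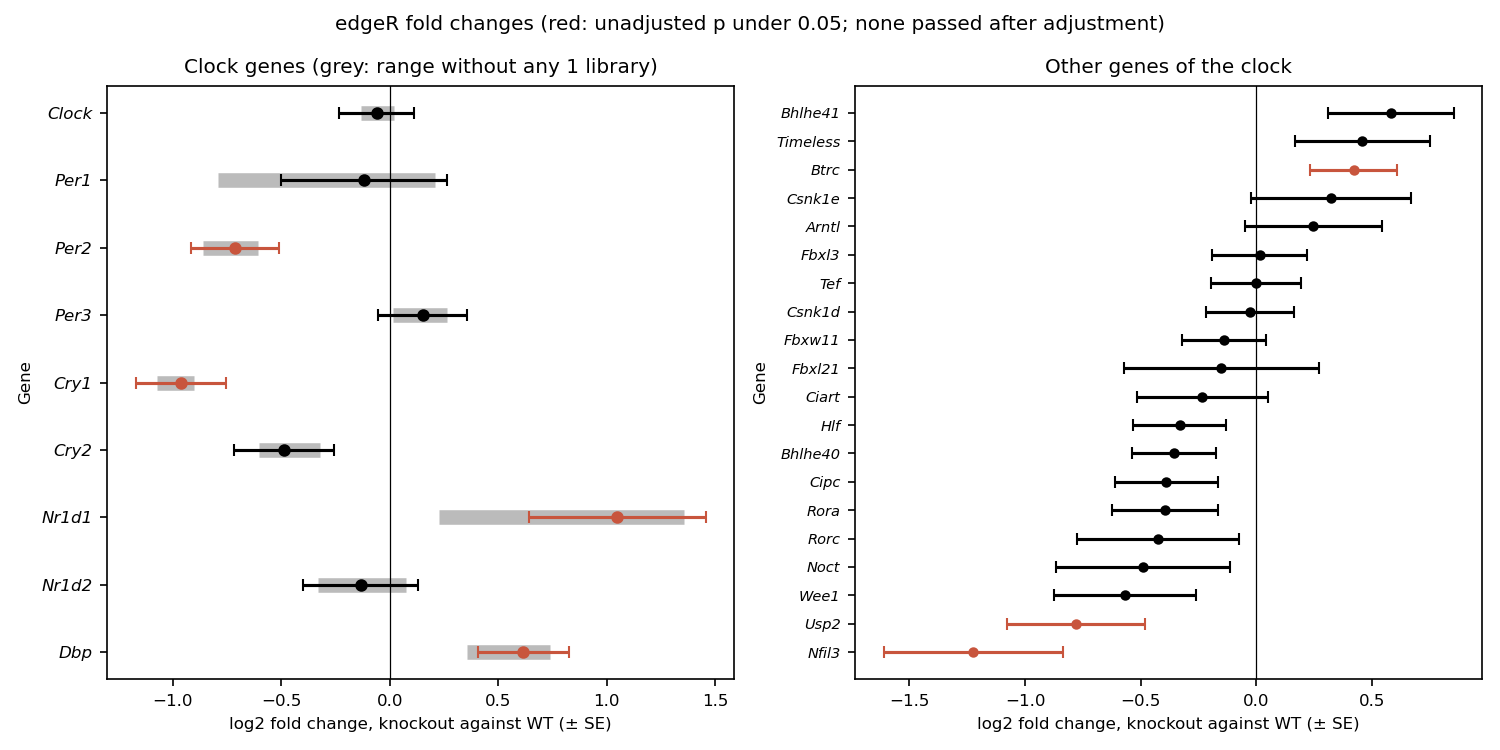
edgeR log2 fold changes of knockout against WT with SE for the 9 tested members (left, with the range over fits without any 1 library in grey) and for the 20 other clock genes tested (right). Red marks an unadjusted p under 0.05; no gene passed after adjustment. Cry1, at -0.96, and Per2, at -0.72, keep narrow grey ranges, while those of Per1 and Nr1d1 are wide.

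Ratios of 2 genes' counts within a library do not depend on how libraries are scaled. The pairs given here were chosen after their values were seen and carry no test. Dbp was higher, and Per2 and Cry1 lower, in every knockout library than in every WT library. Dbp over Per2 and Dbp over Cry1 therefore had to separate the groups and add nothing to those levels. Nr1d1 over Cry1 and Dbp over Tef each hold a gene already apart between the groups. Dbp over Per2 was 0.497, 0.709, 0.455 and 0.737 in WT and 1.49, 0.993 and 2.02 in knockout libraries. Nr1d1 over Cry1 was 1.27, 1.69, 1.02 and 1.70 in WT and 3.56, 2.78 and 10.9 in knockout libraries. In both ratios every knockout library was above every WT library, with knockout replicate 3 highest. Dbp over Tef, its relative of the same PAR bZIP family, was 0.157 to 0.198 in the WT libraries and 0.234 to 0.327 in those of knockout mice. Of the other ratios computed, 2 overlapped between the groups. Per1 over Per2 was 0.537 to 1.02 in the WT libraries and 0.657 to 2.14 in those of knockout mice. Nr1d1 over Nr1d2 was 0.0720 to 0.141 in the former and 0.0976 to 0.572 in the latter. Dbp over Cry1 was 1.31 to 2.13 in the former and 3.51 to 6.06 in the latter, without overlap. The members were also summed into a contrast, the mean centred log2 CPM of Per1, Per2, Per3, Nr1d1, Nr1d2 and Dbp less that of Clock, Npas2 and Cry1. The contrast overlapped, at -0.52 to 0.25 in WT and -0.49, -0.28 and 1.07 in knockout libraries, and Npas2, near 0 counts, was 1 of the 3 genes in its second set. With Npas2 left out, a choice made after seeing the data, it was -0.46 to -0.00083 in WT and 0.10, 0.10 and 0.78 in knockout libraries.

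**Figure D4:**
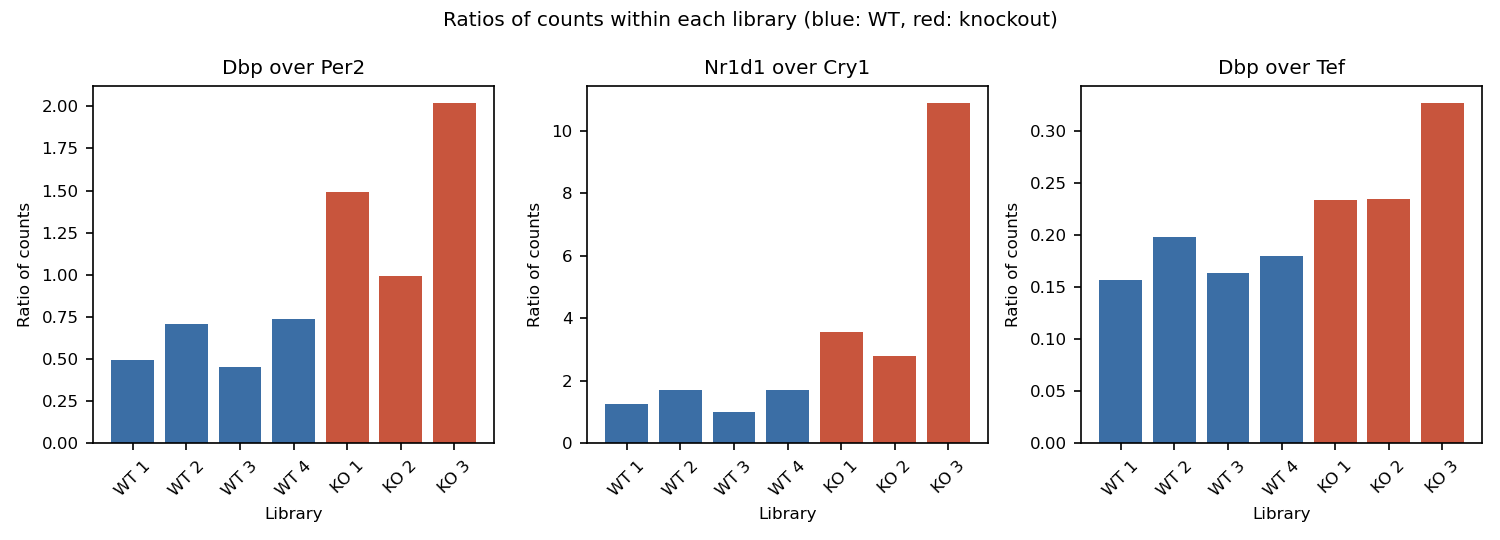
Ratios of counts within each library, Dbp over Per2 (left), Nr1d1 over Cry1 (middle) and Dbp over Tef (right), as bars from 0 for the 4 WT (blue) and 3 knockout (red, KO) libraries. All 3 ratios are higher in every knockout library than in the WT libraries, and highest in knockout replicate 3 at 2.02, 10.9 and 0.327. For Dbp over Per2 the separation follows from the levels of both genes.

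Levels can be compared between genes once divided by exon length, here the merged exons of GENCODE M21. In WT libraries Nr1d2 was the most abundant member at 61.7 ± 8.16 CPM per kb (SD, n = 4), and its range did not meet that of the next gene. Dbp (10.9 ± 0.922), Nr1d1 (9.99 ± 2.47), Per2 (9.54 ± 1.67), Per1 (7.74 ± 1.79) and Cry1 (6.57 ± 1.05) followed, in CPM per kb, each overlapping its neighbour in this order. Clock (4.32 ± 0.501), Per3 (3.86 ± 0.836) and Cry2 (3.84 ± 0.916) formed a lower run of overlapping levels in CPM per kb, and Npas2 came last at 0.0251 ± 0.0242 CPM per kb. The spread among WT libraries was unlike between members: the SD of log2 CPM of Dbp was 0.12, larger than that of 7.86% of all genes tested, and that of Clock 0.17, larger than that of 17.1%. The SDs of Per1 (0.34), Per3 (0.34), Nr1d1 (0.33) and Cry2 (0.33) were near the median of all genes, 0.32. Over all 7 libraries the SD of Nr1d1 was 0.77, larger than that of 93.2% of genes, and that of Per1 0.62, larger than that of 84.9%.

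Pairs of members were compared across the 7 libraries by correlation of log2 CPM. Of 45 pairs, 0 passed after adjustment, by Pearson's r (smallest adjusted p = 0.214) or Spearman's rho (smallest adjusted p = 0.432, exact permutation tests over pairings), and 6 had an unadjusted p under 0.05 by Pearson's r. Pairs that hold Cry1, Per2 or Dbp split into the WT and the knockout libraries, so no pooled value is given for them, and the groups of 4 and 3 are too small for a value within each. Of the other pairs, Per1 and Nr1d2 had r = -0.80 (two-sided exact permutation test, p = 0.0325, adjusted p = 0.268, n = 7) and rho = -0.79 (exact permutation p = 0.0480, adjusted p = 0.432). Without knockout replicates 1 and 3, the libraries farthest from the median of Per1, r was -0.60, and with library size scaling alone it was -0.56. Npas2 and Per1 had r = -0.78 (two-sided exact permutation test, p = 0.0357, adjusted p = 0.268, n = 7) and rho = -0.85 (exact permutation p = 0.0254, adjusted p = 0.432), with Npas2 at 0 to 19 counts. Without WT replicate 3 and knockout replicate 3, where Npas2 had no count, r was -0.50.

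The other genes of the clock were taken from a list of 22, of which 20 were tested. In edgeR 0 passed after adjustment (DESeq2 0, limma voom 0 with or without quality weights), and at an unadjusted p under 0.05 there were 3, Btrc higher and Nfil3 and Usp2 lower, beside the 4.62% of all genes given above. The median log2 fold change was -0.19. Groups did not overlap in 2 of the 20 that were higher (Bhlhe41 and Btrc) and 2 that were lower (Nfil3 and Bhlhe40). Of all genes tested, 3.03% were higher and 3.05% lower without overlap. Nfil3, a repressor that competes with Dbp for D-boxes, was at 4.84, 5.38, 13.2 and 8.20 CPM in WT and at 3.45, 4.14 and 2.47 CPM in knockout libraries. The groups did not overlap, and the log2 fold change was -1.23 ± 0.39 (SE; edgeR, unadjusted p = 0.00983, adjusted p = 0.839). Usp2, a ubiquitin protease gene with a rhythm in many tissues, was at 11.0, 20.0, 22.5 and 28.7 CPM in WT and at 11.2, 12.2 and 12.6 CPM in knockout libraries. WT replicate 1 lay below all knockout libraries, and the log2 fold change was -0.78 ± 0.30 (SE; edgeR, adjusted p = 0.956).

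Arntl, the partner of Clock and Npas2, was low, at 4.20, 2.95, 5.65 and 4.46 CPM in WT and at 3.97, 5.27 and 6.12 CPM in knockout libraries. The groups overlapped, and the difference of 0.25 ± 0.30 on the log2 scale (SE; edgeR, adjusted p = 0.956) turned to -0.051 with quality weights. Of the relatives of Dbp, Tef was at 170 to 198 CPM in WT and 170 to 203 CPM in knockout libraries, a difference of -0.0024 ± 0.19 on the log2 scale (SE). Hlf was at -0.33 ± 0.20 (log2, SE), at -0.19 without knockout replicate 3 and at -0.16 with quality weights. Neither difference from Dbp was tested. The E-box repressor genes Bhlhe40 (-0.36 ± 0.18) and Bhlhe41 (0.58 ± 0.27) had log2 fold changes (± SE) of opposite sign, and the groups did not overlap in either. Without knockout replicate 3 the value of Bhlhe40 was -0.23, and without knockout replicate 1 that of Bhlhe41 was 0.37. Wee1, a cell cycle kinase gene under E-box control, was at -0.57 ± 0.31, and Btrc, which encodes a ubiquitin ligase subunit that acts on Per proteins, at 0.42 ± 0.19 (log2, SE). In Wee1, knockout replicate 3 stood at 7.91 CPM against 18.6 to 25.5 CPM in all other libraries, and the log2 fold change was -0.25 both without it and with quality weights.

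Glucocorticoids are a signal that resets clocks in liver and raises Per1, and the values of 5 genes they induce are given here beside those of the clock. Zbtb16, a transcription factor gene, was at 24.1, 31.9, 50.8 and 40.9 CPM in WT and at 4.79, 10.8 and 7.17 CPM in knockout libraries. Fkbp5, a chaperone gene that feeds back on the glucocorticoid receptor, was at 91.5, 326, 235 and 198 CPM in WT and at 29.7, 64.3 and 58.2 CPM in knockout libraries. Neither gene's groups overlapped, with log2 fold changes of -2.29 ± 0.35 (SE; edgeR, adjusted p = 0.212) and -2.07 ± 0.43 (SE; adjusted p = 0.419). DESeq2, which called 0.469% of all genes, called both, with adjusted p = 3.23e-07 for Zbtb16 and 0.000503 for Fkbp5. Zbtb16 also passed in edgeR with library size scaling alone (adjusted p = 0.0237) or with no filter on low counts (adjusted p = 0.0301), and in limma voom with quality weights (adjusted p = 0.0348), and over its alternatives the adjusted p reached 0.825. Fkbp5 passed under no alternative run but DESeq2, its adjusted p elsewhere lying between 0.0782 and 0.825. The list of 5 genes was chosen with earlier results of these data known, so counts over it carry no test. Of the 5, 4 were lower at an unadjusted p under 0.05 in edgeR, beside 2.35% of all genes lower at that level. After adjustment 0 of the 5 passed. Their median log2 fold change was -0.98. The fifth, Sgk1, was at 222 to 450 CPM in WT and 217 to 322 CPM in knockout libraries. The 5 genes summed to 711 to 1623 CPM in WT and 529 to 669 CPM in knockout libraries, without overlap, and their part in the levels of Per2, Cry1 or Dbp was not tested.

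**Figure D5:**
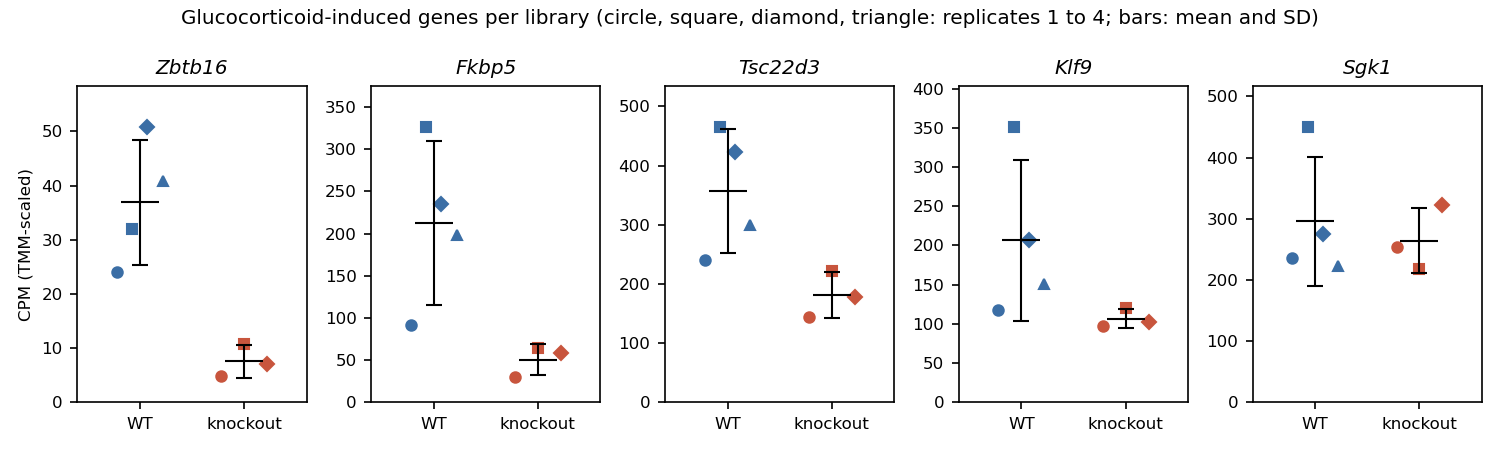
CPM of 5 glucocorticoid-induced genes, 1 panel a gene with axes from 0, in 4 WT (blue) and 3 knockout (red) libraries; horizontal marks and bars are the mean and SD. Zbtb16, Fkbp5 and Tsc22d3 of every knockout library lie below the WT libraries, while Klf9 and Sgk1 overlap.

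Genes that cells switch on within minutes of handling gave other values. Of 11 such genes tested, 0 had an unadjusted p under 0.05 in edgeR, with a median log2 fold change of -0.07. They summed to 170 to 339 CPM in WT and 179 to 218 CPM in knockout libraries. Dusp1, a phosphatase gene, was at -0.61 ± 0.30 and Junb, a part of AP-1 at under 2 CPM, at 0.88 ± 0.46 (log2, SE).

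Summed markers of the fraction's cell types are given here beside the clock genes. The 8 Kupffer cell markers summed to 3737 to 7526 CPM in WT and 2195 to 3307 CPM in knockout libraries, without overlap. Of the 8, 7 had log2 fold changes below 0, and the median was -0.76. In 6 of the 8, Clec4f included, every knockout library lay below every WT library, beside 3.05% of all genes. In edgeR 5 of the 8 were lower at an unadjusted p under 0.05, beside 2.35% of all genes, and 0 passed after adjustment. Clec4f, which drives the Cre, is among the 8, at 1386 to 2656 CPM in WT and 436 to 865 CPM in knockout libraries. With Clec4f taken out, knockout replicate 3 lies above WT replicate 3, and the groups overlap. The 6 sinusoidal endothelial markers summed to 3333 to 8424 CPM in WT and 3684 to 5129 CPM in knockout libraries, the highest being WT replicate 2. The 4 neutrophil markers summed to 32.0 to 109 CPM in WT and 327, 170 and 61.3 CPM in knockout libraries. The 6 T and NK cell markers summed to 110 to 250 CPM in WT and 88.4 to 197 CPM in knockout libraries, and the 4 B cell markers to 110 to 167 CPM and 147 to 234 CPM. The 4 stellate markers summed to 946 to 1455 CPM and 761 to 1382 CPM. The 4 cholangiocyte markers summed to 4.19 to 6.90 CPM and 5.82 to 6.33 CPM, and the 2 erythroid markers with a row to 21.4 to 82.9 CPM and 28.6 to 40.9 CPM. Among these sums, and that of the hepatocyte markers, the Kupffer cell sum alone did not overlap between the groups, and only with Clec4f included. The part of cell composition in the clock gene levels was not tested.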

How the data were processed

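The deposited table holds raw whole-number counts of reads for each gene, with 1 column for each of the 7 libraries. FastQC 0.11.9, STAR 2.7.10a, SAMtools 1.9, featureCounts 2.0.3 and GRCm39 are named in the submitters' processing notes; their settings and the annotation were not given in the sources used here. TruSeq v2 kits were used per the labels' protocols. Nothing says that each library came from a separate mouse, so p-values measure the spread between libraries.

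Counts were tested with edgeR 4.0.16 (R 4.3.3; quasi-likelihood, robust, TMM factors, filterByExpr with a minimum count of 10 and total of 15, group as the only term), and p-values adjusted by Benjamini-Hochberg over all 14077 genes kept. SEs come from the fold change and its F statistic. Log2 CPM used a prior count of 2. Alternatives were DESeq2 1.42.0, limma 3.58.1 voom without and with quality weights, other scalings and filters, and leaving out libraries. Code was tested on simulated counts. Promoters and exon lengths are from GRCm38 annotations, a build other than that of the counts.

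Members, lists and tests were chosen with earlier results of these data known. The text names all members, the 6 other clock genes of smallest p with Arntl, Nfil3, Tef and Hlf, 2 genes of each input list, the 5 genes most like Dbp, Ptpn11 and Clec4f. The rule also asked for genes most like Npas2, which were not sought because of its low counts. Thra and Sphk2 were added for their overlaps, and other genes named were chosen after their values were seen.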

Additional observations from a re-analysis of the deposited data

How the results depend on the processing

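Cry1 and Per2 stayed lower and Dbp and Nr1d1 higher under every alternative run, at log2 fold changes of -1.07 to -0.90, -0.86 to -0.61, 0.36 to 0.74 and 0.23 to 1.36 without any 1 library. DESeq2 called 1 member, Cry1. Every other alternative called 0, an adjusted p threshold of 0.1 included. Of the alternatives counted next at an unadjusted p, only DESeq2 had its share of all genes computed. At an unadjusted p under 0.05, members higher were 1 (Dbp) with voom, with or without quality weights, and 1 to 2 without any 1 library; members lower were 4 with quality weights (Per2, Cry2, Cry1 and Per1). Other clock genes higher were 0 with DESeq2's size factors, library size only, no filter or voom, 2 with upper quartile factors, DESeq2 or quality weights (Bhlhe41 and Btrc), and 0 to 1 without any 1 library; those lower were 4 with quality weights and 1 to 3 without any 1 library. Values near 0 turned sign: Clock was at 0.037 with quality weights and 0.088 without WT replicate 2 and knockout replicate 3 together, Nr1d2 at 0.0068 and 0.023, and Arntl at -0.051 and -0.048. Tef was at 0.034 with upper quartile factors and 0.0044 with the filter of 1 CPM in 3 libraries. Without any 1 library the ranges were -0.13 to 0.018 (Clock), -0.79 to 0.21 (Per1), -0.33 to 0.077 (Nr1d2) and -0.069 to 0.048 (Tef). The contrast, knockout less WT, was 0.18, 0.57 without Npas2, and -0.31 to 0.47 without any 1 library; the lowest was without knockout replicate 3. The causes of these changes were not tested. No paired analysis was possible because nothing in the labels pairs a WT library with a knockout library. Depth limits Npas2 most.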

Other observations

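The 5 genes whose log2 CPM across the 7 libraries was most like that of Dbp, among 12155 other genes at a mean of 2 CPM or more, were Snx30, Atxn2, Arhgef25, Klhl3 and Ltbp3, at r = 0.974, 0.970, 0.965, 0.962 and 0.961. These are the highest of many values over 7 libraries that share the group difference and the stand-out knockout replicate 3. Snx30, Atxn2 and Arhgef25 had log2 fold changes of 0.37, 0.17 and 0.77. Without knockout replicate 3 the log2 fold changes of the 5, in the order given, were 0.15, 0.092, 0.22, 0.41 and 0.49. Klhl3, an adaptor gene of a ubiquitin ligase, averaged 9.61 CPM in WT and 14.8 CPM in knockout libraries (log2 fold change 0.62), and Ltbp3, which encodes a binding protein of latent TGF-beta, 1.99 and 3.42 CPM (log2 fold change 0.78; edgeR, adjusted p = 0.956 for both).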
